A study of Mus musculus with 9 samples.

Results

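Fibronectin, the tenascins and a set of matricellular proteins were examined in mouse 4T1 mammary tumors treated with the focal adhesion kinase (FAK) inhibitor BI 853520. The set was chosen by name and holds 10 genes of the 18755 in the count table: Fn1, Tnc, Tnn, Tnxb, Postn, Sparc, Sparcl1, Thbs1, Thbs2 and Spp1. It was put together with the results of this treatment comparison known, so that the treatment differences of its members are given as a description: no p-value of a member is given for them, and counts of members called are set beside the share of all genes without being read as evidence. The lists of related genes and of cell type markers used below were also chosen with earlier results of these data known. Their counts and p-values are therefore not independent of this comparison. All 10 members passed the filter on low counts, which kept 13966 genes.

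RNA sequencing was performed on 9 tumors grown from 4T1 cells, a murine mammary carcinoma line, injected into the mammary fat pad of female BALB/c mice that were 6 to 10 weeks old. From day 15 after injection, mice received by daily oral gavage for 5 days either the vehicle, 0.5% Natrosol (a cellulose thickener), or 50 mg/kg BI 853520, abbreviated BI. There were 3 vehicle tumors and 6 BI tumors, each sequenced as its own library, and the inhibitor was given in the same vehicle. The libraries were made from pieces of whole tumor tissue, in which fewer cells of a type and less RNA per cell cannot be told apart. The labels do not say more about how the samples of a group relate to each other, and p-values measure the spread between these samples.

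Fibronectin is a large secreted glycoprotein that cells assemble into fibrils through integrins, the receptors from which FAK signals. Matricellular proteins are secreted into the same matrix but act less as building material than as modulators of adhesion, growth factors and proteases. Tenascin-C, tenascin-N, periostin, SPARC, thrombospondins and osteopontin are of this kind, and several are typical of the stroma of carcinomas and of healing wounds. Integrins of the αv and α5β1 type recognize in some of these proteins the tripeptide Arg-Gly-Asp (RGD), which is present in both fibronectin and osteopontin.

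The codons of the RGD tripeptide are shown because they mark the members that carry this integrin recognition sequence. They were searched in the coding sequences of the mm9 assembly (GENCODE annotation), and each stretch is given 5′ to 3′ on the coding strand with the RGD codons in capitals and 18 bases on each side.
Fn1, codons 1614 to 1616, exon 30 of 46: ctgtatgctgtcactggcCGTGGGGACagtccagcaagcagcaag
Fn1, codons 2181 to 2183, exon 40 of 46: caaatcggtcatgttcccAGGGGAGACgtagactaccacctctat
Tnn, codons 427 to 429, exon 6 of 22: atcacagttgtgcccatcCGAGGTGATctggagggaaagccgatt
Thbs1, codons 927 to 929, exon 18 of 22: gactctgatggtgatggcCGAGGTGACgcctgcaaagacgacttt
Thbs2, codons 928 to 930, exon 18 of 22: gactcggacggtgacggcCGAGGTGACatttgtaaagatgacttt
Spp1, codons 145 to 147, exon 7 of 8: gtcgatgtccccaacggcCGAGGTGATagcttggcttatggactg
The capitals of the Fn1 stretches lie at chr1:71653320-71653328 and chr1:71644017-71644025 on the minus strand. Those of Tnn lie at chr1:162069417-162069425 on the minus strand and those of Thbs1 at chr2:117948618-117948626 on the plus strand. For Thbs2 the position is chr17:14808491-14808499 on the minus strand, and for Spp1 it is chr5:104868500-104868508 on the plus strand. RGD was thus found in 5 of the 10 members, with 2 sites in Fn1, and in the longest coding sequences of Tnc, Tnxb, Postn, Sparc and Sparcl1 it was not found. Of 21346 mouse genes with a complete coding sequence, 1524 (7.14%) hold it at least once. A match is a description of the sequence and says nothing about its use by a receptor.

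The levels of the members spanned a wide range. Levels of different genes are compared here as RPKM (CPM per kilobase of the deposited gene length, where CPM are counts per library scaled to 1000000 with TMM, trimmed mean of M-values, factors). In vehicle tumors, Spp1 had the highest level of the 10 members, with 2674 ± 745 RPKM (SD, n = 3), followed by Fn1 with 1028 ± 131, Sparc with 400 ± 57.0 and Thbs1 with 292 ± 49.8. Thbs2 (74.2 ± 9.92), Postn (55.1 ± 22.3) and Tnc (43.7 ± 8.00) formed a middle group whose neighbors overlapped in range. Sparcl1 was at 11.8 ± 1.14 RPKM, and Tnn (0.681 ± 0.517) and Tnxb (0.266 ± 0.141) were lowest and overlapped each other. All other neighbors in this order had separate ranges in the vehicle tumors. In BI tumors the order was the same except that Postn (104 ± 42.1 RPKM, SD, n = 6) stood above Thbs2 (73.0 ± 5.77). There, Spp1 (1738 to 3267) and Fn1 (1404 to 2126) overlapped in range, as did Thbs1 with Postn and Postn with Thbs2 and Tnc, whereas Tnn (1.97 to 10.6) was above Tnxb (0.207 to 0.915) in every tumor. Per length, Spp1 ranked between the 3rd and the 9th of all 18755 genes and Fn1 between the 10th and the 24th, depending on the tumor. In counts, without regard to length, Fn1 was the most abundant gene of the whole table in each of the 9 tumors and took 0.766% to 1.76% of all counts.

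**Figure D1:**
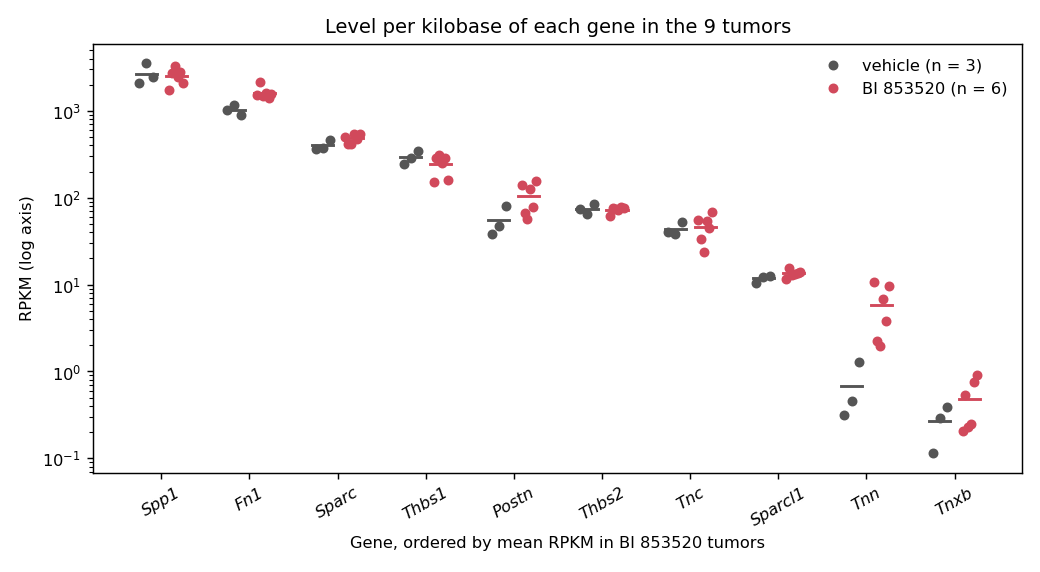
RPKM (log axis) of each of the 10 members, ordered by the mean in BI tumors, in the 3 vehicle (grey) and 6 BI tumors (red). Each point is 1 tumor and the horizontal lines are group means. Spp1 and Fn1 are at the top and Tnn and Tnxb at the bottom, and the groups do not overlap for Fn1 and Tnn.

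Among the 10 members, Fn1 and Tnn were the genes whose level was higher in every BI tumor than in every vehicle tumor, and no member was lower in every BI tumor. Genes without overlap between the groups made up 28.1% of the 13966 genes tested, 14.1% with BI above and 14.0% with BI below. In edgeR's quasi-likelihood test, with p-values adjusted over all genes after Benjamini and Hochberg, 2 of 10 members, again Fn1 and Tnn, were called higher and 0 lower, where 28.7% of all genes tested were called, 14.6% higher and 14.1% lower. No member was lower at an unadjusted p of 0.05 either, and DESeq2 and limma-voom called 0 lower. With the study's cutoffs, an unadjusted p and a minimum fold change, 13.2% of all genes tested were called, 9.59% higher and 3.57% lower, and 3 of 10 members, Fn1, Tnn and Postn, were among the genes called higher. The members were chosen with this contrast in view, and nothing is read from their counts. Their median log2 fold change was 0.23 with 7 of 10 above 0, against -0.0037 and 49.5% above 0 among all genes tested.

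Fn1 (chr1:71632094-71699774, minus strand), which encodes fibronectin, had 8521, 9835 and 7636 CPM in vehicle replicates 1 to 3. In BI replicates 1 to 6 it had 12900, 17911, 12588, 13417, 11832 and 13166 CPM. All BI tumors were above the highest vehicle tumor, and BI replicate 2 stood apart at the upper end. The means were 8664 ± 1107 (SD, n = 3) and 13636 ± 2165 CPM (SD, n = 6), a log2 fold change of 0.65 with a standard error of 0.140, and without BI replicate 2 it was 0.56. An exon of Fn1 overlaps one of Apol7d on the other strand in the mm9 annotation, and although the libraries were stranded, whether reads were counted by strand is not given in the sources used here.

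The tenascins are large matrix proteins that can weaken the attachment of cells to fibronectin. Tnn (chr1:162015165-162083711, minus strand), encoding tenascin-N, had 1.83, 2.64 and 7.40 CPM in the vehicle tumors. In BI replicates 1 to 6 the levels were 61.8, 13.0, 11.5, 40.1, 22.3 and 56.6 CPM. The lowest BI tumor lay above the highest vehicle tumor, but the BI tumors differed among themselves by up to 5.40 times. The mean level went from 3.96 ± 3.01 to 34.2 ± 21.9 CPM, and the log2 fold change of 3.04 (standard error 0.646) was the highest of the members. Vehicle replicate 3 had the highest Tnn of its group, and without it the log2 fold change was 3.93. The counts behind these values ranged from 40 to 1307 per tumor.

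Tnc (chr4:63620819-63681760, minus strand), encoding tenascin-C, which is prominent in tumor stroma, had 287, 268 and 375 CPM in vehicle tumors and 393, 237, 169, 381, 316 and 488 CPM in BI replicates 1 to 6. Here 3 BI tumors were above all vehicle tumors and 2 were below all of them. The log2 fold change was 0.09 (standard error 0.262), and it was -0.05 without BI replicate 6. Tnxb (chr17:34807480-34856760, plus strand), encoding tenascin-X of connective tissue, had the fewest counts of the members, with 24 to 151 per tumor. It had 1.10, 2.77 and 3.77 CPM in vehicle tumors and 1.98, 5.16, 2.17, 2.38, 7.25 and 8.75 CPM in BI replicates 1 to 6, with 3 BI tumors above all vehicle tumors (log2 fold change 0.81, standard error 0.520). Reads of Tnxb that match another copy, such as a pseudogene, equally well would be dropped, because unique alignments alone were kept. An exon of Tnxb also overlaps Cyp21a2-ps on the other strand, and its counts are therefore uncertain. For Tnc, an exon overlaps the long noncoding RNA 8030451A03Rik on the other strand.

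Postn (chr3:54165031-54194961, plus strand) encodes periostin, a protein of fibroblasts that binds integrins, tenascin-C and collagen. It had 126, 154 and 265 CPM in vehicle tumors and 460, 217, 187, 413, 257 and 516 CPM in BI replicates 1 to 6. Replicates 1, 4 and 6 of the BI group were above all vehicle tumors, whereas the other three were below vehicle replicate 3. The log2 fold change was 0.91 (standard error 0.340), and it was 1.29 without vehicle replicate 3 and 0.70 without vehicle replicate 1.

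Sparc (chr11:55208002-55233582, minus strand) encodes a collagen-binding protein secreted by fibroblasts and endothelium. Its levels were 830.0, 858 and 1070 CPM in vehicle tumors and 1153, 965, 963, 1237, 1092 and 1234 CPM in BI replicates 1 to 6. BI replicates 2 and 3, which had the lowest Postn of the BI group, were within the vehicle range, and the other 4 were above it (log2 fold change 0.27, standard error 0.110). Sparcl1 (chr5:104508130-104543107, minus strand), a relative of Sparc expressed in vessel walls, had 32.8, 38.1 and 39.6 CPM in vehicle tumors. In BI tumors the lowest value was 36.6, the median 41.8 and the highest 48.1 CPM, with 5 of 6 above all vehicle tumors and BI replicate 1 below 2 of them. The log2 fold change of Sparcl1 was 0.19 (standard error 0.0883), and an exon overlaps the long noncoding RNA Gm16990 on the other strand.

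Thrombospondins bind cell-surface receptors and restrain vessel growth, and thrombospondin-1 also activates latent transforming growth factor β. Thbs1 (chr2:117937612-117952869, plus strand) had 1428, 1652 and 2001 CPM in vehicle tumors and 870, 1670, 1824, 1474, 1643 and 930 CPM in BI replicates 1 to 6. BI replicates 1 and 6 were below every vehicle tumor, and the other 4 BI tumors lay within the vehicle range (log2 fold change -0.27, standard error 0.222). Thbs2 (chr17:14802507-14831269, minus strand) had 440, 380 and 498 CPM in vehicle tumors and between 368 and 467 CPM in BI tumors, with a log2 fold change of -0.02 (standard error 0.0917). The groups of Thbs2 overlapped throughout, with 1 BI tumor below the vehicle range.

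Spp1 (chr5:104864137-104870069, plus strand), encoding osteopontin, an integrin and CD44 ligand made by macrophages and carcinoma cells, had 3451, 5819 and 4028 CPM in vehicle tumors. In BI replicates 1 to 6 it had 2882, 4549, 5417, 4069, 4629 and 3455 CPM. Of the BI tumors, 1 was below the vehicle range and 5 lay inside it (log2 fold change -0.09, standard error 0.197). The direction of this difference rested on single tumors, since it was 0.16 without vehicle replicate 2, and that of Thbs2 was 0.08 without vehicle replicate 3. Among the members with RGD codons, Fn1 and Tnn were thus higher in all BI tumors, while Thbs1, Thbs2 and Spp1 overlapped between the groups.

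**Figure D2:**
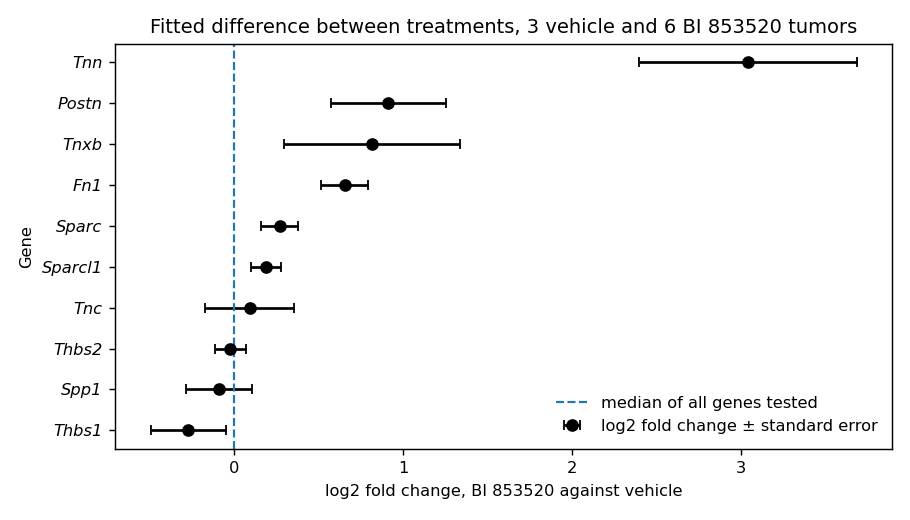
Log2 fold change of BI against vehicle for the 10 members, ordered by size, with bars of 1 standard error from the edgeR fit. The values run from -0.27 for Thbs1 to 3.04 for Tnn, and the dashed line at -0.0037 is the median of all genes tested.

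The members differed in how much they varied among the BI tumors. Across the 6 BI tumors, the standard deviation of log2 CPM was 1.05 for Tnn, 0.93 for Tnxb, 0.62 for Postn, 0.56 for Tnc, 0.46 for Thbs1, 0.33 for Spp1, 0.21 for Fn1, 0.16 for Sparc, 0.13 for Sparcl1 and 0.12 for Thbs2. The median over all genes tested was 0.14, so that Sparcl1 and Thbs2 lay below it and the other 8 members above it.

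To see whether the members varied together from tumor to tumor, log2 CPM was centered on each group's mean, which removes the difference between the treatments, and correlated over the 9 tumors. In all, 135 relations were computed, among the members and with the summed markers of 8 cell types and the total counts, and p-values are two-sided and exact over 4320 permutations within the groups. Tnc, Tnn, Postn and Sparc formed a group that moved together. Tnn and Postn had r = 0.989 and Spearman's rho = 0.933 (n = 9, exact permutation p = 0.000463 for r, adjusted p = 0.0208), and r was 0.986 without the 2 tumors farthest from the median of Postn, vehicle replicate 3 and BI replicate 6. For all 6 pairs of these genes, r was between 0.869 and 0.989 and rho between 0.833 and 0.933, with adjusted permutation p between 0.0208 and 0.0469 for r. Without the 2 farthest tumors, r of these pairs stayed between 0.886 and 0.986, and within the 6 BI tumors alone it was between 0.918 and 0.985. By rho, no relation of the 135 had an adjusted permutation p of at most 0.05, and for these pairs the value was between 0.0875 and 0.128.

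**Figure D3:**
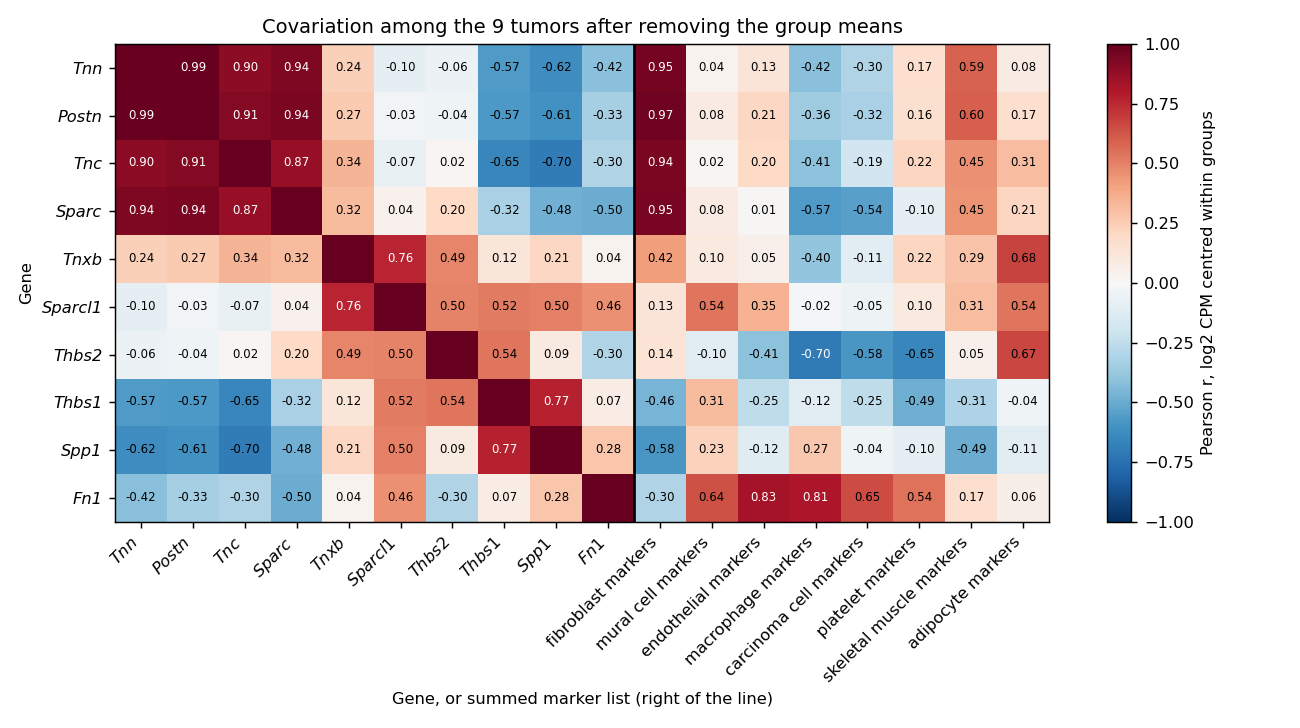
Pearson r over 9 tumors of log2 CPM centered within groups (color scale, red positive and blue negative), for the 10 members against each other and, right of the line, against the summed markers of 8 cell types. Tnn, Postn, Tnc and Sparc form a block with r of 0.87 to 0.99, and each has r of 0.94 to 0.97 with the fibroblast markers.

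The same 4 genes moved with the summed level of 10 fibroblast markers. Postn had r = 0.970 and rho = 0.933 with it (n = 9, exact permutation p = 0.000463 for r, adjusted p = 0.0208, r = 0.968 without the 2 farthest tumors). For Tnc, Tnn and Sparc, r was 0.940, 0.953 and 0.953, rho 0.833, 0.867 and 0.967, adjusted permutation p 0.0208 in each case, and r without the 2 farthest tumors 0.950, 0.940 and 0.951. This relation depended on which markers were summed. Col1a1 and Col3a1, the genes of the fibrillar collagens, made up 70.7% of the sum, and Pdgfra, the receptor that marks resident fibroblasts, 16.4%. Without the 2 collagens r was -0.18 for Tnc, -0.07 for Tnn, 0.0095 for Postn and -0.03 for Sparc. With Pdgfra left out as well it was 0.895, 0.873, 0.922 and 0.790. Lum, a small proteoglycan of collagen fibrils, had r = 0.903, 0.934, 0.955 and 0.811 with Tnc, Tnn, Postn and Sparc. Dcn, Dpt, Mfap5, Pdgfrb and Fap also had positive r with all 4 genes, from 0.22 (Fap with Tnn) to 0.90 (Dcn with Tnc). For Col1a1 and Col3a1, r was between 0.947 and 0.969. Pdgfra alone had negative r with all 4 genes, and so had Pi16, with r between -0.66 and -0.47. With the mean log2 CPM of the 10 markers, r was 0.896, 0.858, 0.898 and 0.893 for Tnc, Tnn, Postn and Sparc. These values for other sums, the mean and single markers were chosen after the data were seen and are given without a test.

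Fn1 did not belong to this group, with r between -0.50 and -0.30 to Tnc, Tnn, Postn and Sparc and no p under 0.05. It had r = 0.833 and rho = 0.817 with the summed endothelial markers (n = 9, exact permutation p = 0.00417 for r, adjusted p = 0.0511, r = 0.768 without the 2 farthest tumors). With the summed macrophage markers Fn1 had r = 0.807 and rho = 0.700 (exact permutation p = 0.0222 for r, adjusted p = 0.231, r = 0.773 without the 2 farthest tumors). The farthest tumors were taken on the marker sum: BI replicates 2 and 3 for endothelial, vehicle replicate 3 and BI replicate 5 for macrophage markers. BI replicate 2, with the highest Fn1, thus stayed in the value of 0.773. Within the 6 BI tumors, rho of Fn1 was 0.886 with the endothelial and 0.486 with the macrophage markers. Fn1 also had r = 0.653 with the carcinoma cell, 0.637 with the mural cell and 0.541 with the platelet markers. The exact permutation p for r was 0.0676, 0.0833 and 0.176. For skeletal muscle, adipocyte and fibroblast markers, r was 0.171, 0.0585 and -0.300. None of these relations of Fn1 passed the correction for 135 relations. Thbs1 and Spp1 had r = 0.767 and rho = 0.700 (exact permutation p = 0.0215 for r, adjusted p = 0.231, r = 0.835 without the 2 farthest tumors). Their low values in BI replicates 1 and 6 were in the tumors with the highest Tnn and Postn of all. With the total counts of the tumors, r over the 9 tumors was between -0.25 and 0.455 for the members, with no permutation p under 0.05. Among the 6 BI tumors alone, however, Tnxb had r = -0.94 with the total counts (-0.89 over the tumors other than vehicle replicates 1 and 3), and Thbs2 had r = -0.53, both given as a description.

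**Figure D4:**
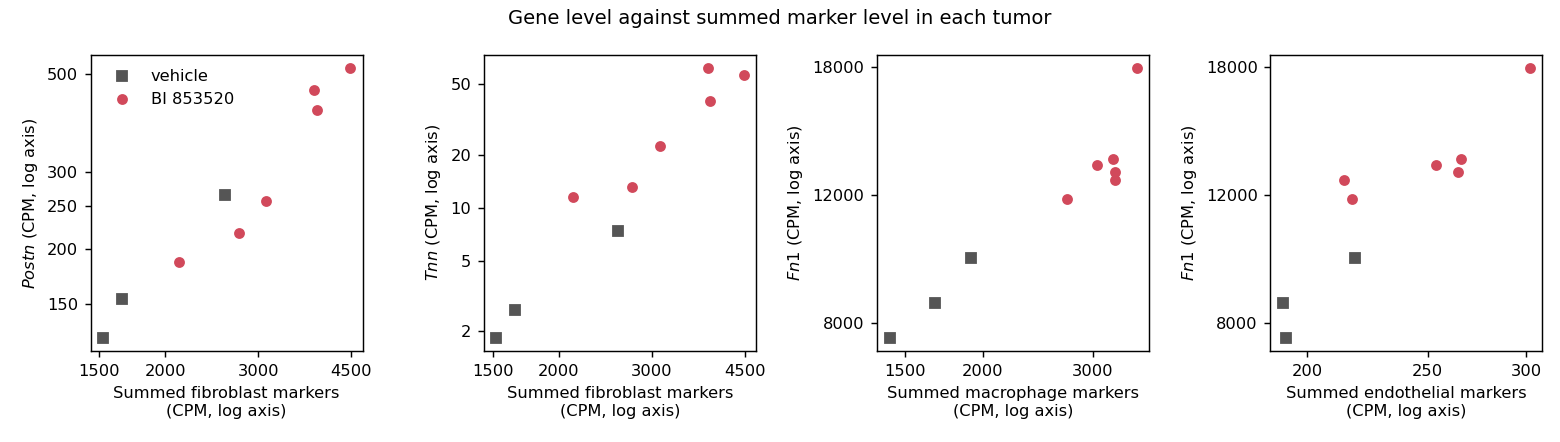
Postn and Tnn against the summed fibroblast markers, and Fn1 against the summed macrophage and endothelial markers, in CPM on log axes, 1 point per tumor. The log2 ratio of Postn to the fibroblast markers differs by 0.08 between the groups and that of Tnn by 2.28, and the groups do not overlap along the macrophage axis.

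Several of the cell type markers differed between the groups, where 14.6% of all genes tested were called higher and 14.1% lower. The 8 macrophage markers summed to 1418 to 1913 CPM in vehicle tumors and 2721 to 3524 CPM in BI tumors, and 7 of 8 were called higher. C1qb, a complement component of macrophages, rose from 273 ± 25.5 to 591 ± 44.2 CPM (log2 fold change 1.11, standard error 0.0843, adjusted p = 1.285e-05 by edgeR's quasi-likelihood test). The 8 carcinoma cell markers summed to 946 to 1172 CPM in vehicle and 743 to 945 CPM in BI tumors, with 2 of 8 called lower, the keratins Krt18 and Krt8. These 2 genes made up 98.3% of the sum in vehicle tumors, the list had 4 of 8 genes with a log2 fold change above 0 and a median of -0.08, and Epcam, the epithelial adhesion molecule, which was picked out after its values were seen, had 1.06 with an adjusted p of 0.0987. The call of Krt8 was lost without vehicle replicate 1 or 2 and without BI replicate 3, 4, 5 or 6 (adjusted p between 0.0213 and 0.195 over the alternatives). The fibroblast markers summed to 1525 to 2595 and 2127 to 4481 CPM, with 5 of 6 BI tumors above the vehicle range, but 1 of 10, Pi16 of adventitial fibroblasts, rose in the test (21.9 ± 2.46 to 66.3 ± 17.4 CPM, log2 fold change 1.59, standard error 0.209, adjusted p = 0.000249). Endothelial markers summed to 191 to 219 and 214 to 302 CPM, with 3 of 8 called higher. Mural cell markers summed to 200 to 231 and 223 to 281 CPM, with 1 of 8 called higher. Neither this count nor that of the fibroblast markers was above the share of all genes tested. Called or not, 8 of 8 macrophage, 9 of 10 fibroblast, 8 of 8 endothelial and 6 of 8 mural cell markers had a log2 fold change above 0. Among all genes tested this share was 49.5%. Of the fibroblast markers, 4 were called higher without vehicle replicate 3 or BI replicate 2, 5 without BI replicate 3 and 2 without BI replicate 1, and 5 endothelial markers were called without BI replicate 3 or 5. None of the 3 endothelial genes was called without vehicle replicate 3. The mural gene, Acta2, lost its call in 7 of 14 alternatives. These were without any one of the vehicle tumors, without BI replicate 1, 4 or 5, and without a filter on low counts. Leaving out 1 tumor, 17.7% to 28.6% of all genes tested were called in either direction, the fewest without vehicle replicate 3. No gene was called among markers of platelets (37.4 to 59.2 and 38.0 to 66.0 CPM), skeletal muscle (6.14 to 18.3 and 5.02 to 14.5 CPM) and adipocytes (5.23 to 10.9 and 6.05 to 48.9 CPM) by edgeR. At an unadjusted p of 0.05 there was 1 adipocyte marker higher and 0 of the other two lists, and DESeq2 gave the same counts, whereas limma-voom called 0. No marker of any list was at 0 in all tumors.

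Set against these sums within each tumor, the members separated further. The log2 ratio of Fn1 to the carcinoma cell markers was higher by 1.03 in BI tumors, with all 6 above the vehicle range, but this is in effect the ratio to Krt8 and Krt18. The separation was fixed by its parts, since in all 6 BI tumors Fn1 was above and the marker sum below the vehicle range. The marker sums were apart by little, with 945.1 CPM in BI replicate 2 and 945.9 CPM in vehicle replicate 3. Relative to the other 6 carcinoma cell markers, an alternative added after the data were seen, the difference was 0.60, with 5 BI tumors above and 1 below the vehicle range. The ratio of Fn1 to the macrophage markers went from 2.38 ± 0.0436 (SD, n = 3) to 2.10 ± 0.139 (SD, n = 6) on the log2 scale and was below the vehicle range in all 6, the highest BI tumor by little (2.345 against 2.347). Against the fibroblast markers, Fn1 overlapped between the groups with a difference of -0.15. The log2 ratio of Tnn to the fibroblast markers was higher by 2.28 and above the vehicle range in all 6 BI tumors, and that of Postn differed by 0.08 with overlap. Tnc had a difference of -0.78 to the fibroblast markers and was below the vehicle range in all 6 BI tumors. Col1a1 and Col3a1 made up 70.7% of the fibroblast sum, so that these were largely ratios to those 2 genes. Relative to Pdgfra alone, the differences were 2.67 for Tnn, with 4 of 6 BI tumors above the vehicle range, and -0.39 for Tnc, with overlap. For Postn the difference was then 0.47, with 3 BI tumors above and 2 below the vehicle range. For Fn1 it was 0.24, with 3 above and 0 below. Sparc, Sparcl1, Thbs1, Thbs2 and Spp1 were below the vehicle range in all 6 BI tumors when divided by the macrophage markers, which themselves did not overlap between the groups. The part of the cell types in the differences of the members was not tested.

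The remaining genes of the matricellular families were followed in a list of 26, of which 24 were in the counts and 21 were tested. Of these, 6 were called higher and 1 lower, against a background of 14.6% and 14.1% of all genes tested, and their median log2 fold change was 0.69. This list and those of receptors and matrix partners were chosen with earlier results of these data known, so that such counts are a description. Ibsp, bone sialoprotein, an RGD protein of the osteopontin family, had 3.21, 2.55 and 3.18 CPM in vehicle tumors and 11.4 to 31.3 CPM in BI tumors (log2 fold change 2.78, standard error 0.300, adjusted p = 7.57e-05). It rose while Spp1, the osteopontin gene of the same chromosomal cluster, overlapped between the groups. Fbln5, which organizes elastic fibers, rose from 4.29 ± 0.518 to 7.95 ± 1.44 CPM (log2 fold change 0.88, standard error 0.174, adjusted p = 0.00319). Ccn5, a growth-restraining CCN protein, rose from 12.7 ± 3.33 to 30.3 ± 9.12 CPM (log2 fold change 1.25, standard error 0.281, adjusted p = 0.00665). Tgfbi, the closest relative of periostin and the most abundant of the list per length in BI tumors (174 RPKM, against 129 for Fbln2, which led in vehicle tumors with 150.4 against 104 RPKM), rose from 280 ± 57.8 to 466 ± 135 CPM (log2 fold change 0.74, standard error 0.231, adjusted p = 0.0324).

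Ccn1, a CCN protein induced by cell adhesion and growth signals, was the gene of this list called lower. It had 129, 127 and 165 CPM in vehicle tumors and 58.8 to 117 CPM in BI tumors, all 6 below the vehicle range (log2 fold change -0.61, standard error 0.168, adjusted p = 0.0178). Without vehicle replicate 3 its log2 fold change was -0.48 and its adjusted p 0.102, and over all alternatives the adjusted p ranged from 0.00271 to 0.102. The call of Tgfbi was lost without vehicle replicate 2 or 3 or BI replicate 1, 4 or 6, with an adjusted p from 0.00527 to 0.124 over the alternatives. Of the other thrombospondins, which were named for their family after their values were seen, Thbs3 rose (20.4 ± 2.21 to 27.4 ± 3.37 CPM, adjusted p = 0.0150), a call lost without vehicle replicate 3 (adjusted p = 0.0837, range over the alternatives 0.00259 to 0.0837). Thbs4 (0.824 and 1.51 CPM) and Comp (0.296 and 0.608 CPM) were at low levels, with adjusted p of 0.242 and 0.0586.

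**Figure D5:**
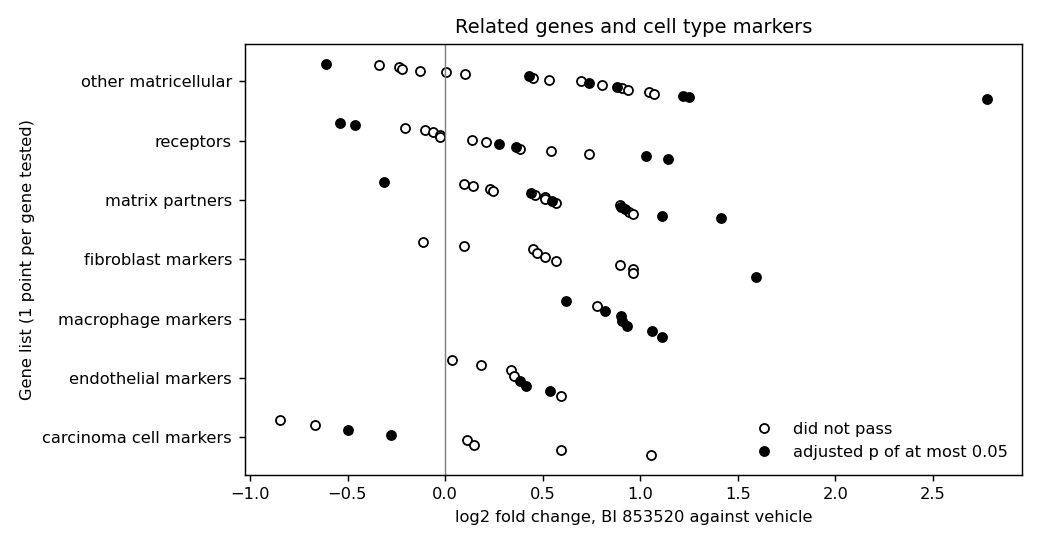
Log2 fold change of BI against vehicle for each tested gene of 3 lists of related genes and 4 lists of cell type markers, 1 point per gene. Filled points had an adjusted p of at most 0.05 by edgeR's quasi-likelihood test and open points did not. Ibsp at 2.78 is the highest of all points, and Ccn1 at -0.61 is the lowest of the other matricellular genes.

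Receptors of these proteins formed a list of 17, of which 16 were tested, with a median log2 fold change of 0.18. Of these, 4 were called higher and 2 lower, against 14.6% and 14.1% of all genes tested. Without vehicle replicate 1 or 3, 2 receptors were called higher. The share of all genes called in either direction was then 19.6% and 17.7%, against 28.7% with all tumors. Itga4, the integrin chain that binds fibronectin and osteopontin on leukocytes, rose from 41.5 ± 2.63 to 84.6 ± 15.0 CPM (log2 fold change 1.03, standard error 0.134, adjusted p = 0.000237). Stab1, a scavenger receptor by which macrophages take up SPARC, rose from 237 ± 37.6 to 522 ± 120 CPM (log2 fold change 1.14, standard error 0.178, adjusted p = 0.000729). Itga9, a tenascin-C and osteopontin receptor chain, rose from 42.2 ± 4.55 to 54.3 ± 5.62 CPM (log2 fold change 0.36, standard error 0.0932, adjusted p = 0.0132). This call was lost without vehicle replicate 1 (adjusted p = 0.0718) or vehicle replicate 3 (adjusted p = 0.0574), and over all alternatives its adjusted p ranged from 0.00200 to 0.0718.

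The receptors called lower were Sdc4 and Itgav. Sdc4, the syndecan that joins integrins in binding fibronectin at focal adhesions and the most abundant receptor of the list per length, had 1032, 1126 and 1081 CPM in vehicle tumors and 685 to 841 CPM in BI tumors (log2 fold change -0.54, standard error 0.0779, adjusted p = 0.000470). Itgav, the αv chain of RGD-binding integrins, had 453, 395 and 469 CPM in vehicle tumors and 271 to 347 CPM in BI tumors (log2 fold change -0.46, standard error 0.0818, adjusted p = 0.00168). Both were lower in every BI tumor than in every vehicle tumor. The chains of the classical fibronectin receptor were looked up in addition, after the values were seen: the log2 fold change of Itga5 was 0.14 with an adjusted p of 0.226 (standard error 0.0829), and that of Itgb1 was -0.03 with an adjusted p of 0.776 (standard error 0.0617).

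The matrix partners were 18 genes of collagens, proteoglycans, elastic fibers and processing enzymes, all tested, with a median log2 fold change of 0.53. Of them, 6 were called higher and 1 lower, against the same 14.6% and 14.1% of all genes tested. The count called higher was 1 without vehicle replicate 1 or 2 and 10 without BI replicate 3. The share of all genes called in either direction was 19.6%, 21.7% and 27.8% in these settings, against 28.7% with all tumors. Of these genes, 4 (Col1a1, Col3a1, Dcn and Lum) are fibroblast markers as well. Mmp14, a membrane protease that cleaves collagen and fibronectin, rose from 503 ± 41.8 to 736 ± 66.0 CPM (log2 fold change 0.55, standard error 0.0869, adjusted p = 0.000814). Eln, elastin, rose from 6.89 ± 0.972 to 18.5 ± 8.99 CPM (log2 fold change 1.42, standard error 0.362, adjusted p = 0.0128), and Mmp2, a gelatinase that Mmp14 activates, from 72.2 ± 18.6 to 156 ± 56.2 CPM (log2 fold change 1.11, standard error 0.288, adjusted p = 0.0135). Without vehicle replicate 1 or 2 the adjusted p was 0.0509 in both cases for Eln, and for Mmp2 it was 0.0619 and 0.0606. The alternatives ranged from 0.00424 to 0.0509 for Eln and from 0.00266 to 0.0619 for Mmp2. Bmp1, a protease that processes procollagens, fell from 608 ± 21.3 to 490 ± 41.4 CPM (log2 fold change -0.31, standard error 0.0759, adjusted p = 0.00974). Col1a1, the most abundant gene of the fibroblast markers per length, had 631 ± 272 and 1230 ± 463 CPM with an adjusted p of 0.0538, and it was called in 5 alternatives, with a range from 0.0160 to 0.188.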

How the data were processed

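RNA from pieces of 9 tumors of 4T1 cells (3 vehicle, 6 BI) was sequenced from stranded mRNA libraries. The authors aligned the reads to mm9 with STAR, keeping unique alignments, and counted with QuasR reads starting in any exon of a RefSeq gene; the deposited values are raw counts of 18755 genes with a gene length. Total counts were 21727879 to 33850245 in vehicle tumors, the highest in vehicle replicate 3, and 16931607 to 22349873 in BI tumors. Over all tumors, 3 counts, taken as the floor, thus correspond to between 0.0886 and 0.177 CPM, which covers counting error only.

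The members and the gene lists were chosen with earlier results of these data known. Symbols came from RefSeq by Entrez identifier (18700 matched), and positions and coding sequences from GENCODE on mm9. edgeR 4.0.16 (R 4.3.3) was used with TMM normalization, filterByExpr (minimum count 10, minimum total 15) and its quasi-likelihood test, comparing both groups with no covariate. Genes were called at an adjusted p (Benjamini-Hochberg) of 0.05 or less. CPM and RPKM were computed with TMM factors, and a prior count of 2 was added for log2 CPM. The fit was tested on data simulated from these counts. Groups came from the sample labels, which name no batch and give no pairing. Correlations used exact permutation within groups, and their p-values were added after the data were seen, as were 4 other ways of measuring fibroblast markers. Protein sequences were not used here, and RGD codons were searched in coding sequences in their place.

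Named are all members and, of each list, up to 3 genes with the smallest p in each direction among those called and the most abundant gene by mean RPKM over the 9 tumors. Of the list entries, 2 of 117 were not in the counts. For each member, the 3 genes most alike over the 9 tumors among 12186 with a mean log2 CPM of at least 1 are named as well. Alternatives were DESeq2 size factors in edgeR, no filter, a filter of 1 CPM in at least 3 tumors, DESeq2 1.42.0, limma-voom (limma 3.58.1), each tumor left out in turn, and the study's cutoffs (unadjusted p of at most 0.05 with an absolute log2 fold change of 0.584 or more).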

Additional observations from a re-analysis of the deposited data

Results flagged for a closer look

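Fn1 in the BI tumors was set apart by 1 library, since BI replicate 2 had 17911 CPM and the other 5 BI tumors had 11832 to 13417 CPM. The gap to the nearest tumor was 0.739 of the range of the group, above Dixon's critical value of 0.625 for 6 samples. The same tumor had the highest Itga9, at 65.7 CPM, against 51.5 to 53.2 CPM in the other BI tumors. It also had the highest summed macrophage (3524 CPM), endothelial (302 CPM) and mural cell markers (281 CPM) of the BI group. Without it the log2 fold change of Fn1 was 0.56.

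The summed adipocyte markers were 48.9 CPM in BI replicate 6 and 6.05 to 21.3 CPM in the other BI tumors. In all, 48 groups of BI values were examined, and chance alone flags about 1 in 20 groups.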

How the results depend on the processing

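The log2 fold changes of the 10 members moved by less than 1 SD between replicates in all 140 alternatives. Leaving out 1 tumor can hardly shift a group mean by that much, so those alternatives could hardly fail this limit. With 1 tumor left out, the log2 fold change of Tnn ran from 2.72 to 3.93, and those of Tnc, Thbs2 and Spp1 changed sign in some settings. Fn1 and Tnn were called in all 15 alternative settings, in which 13.2% to 31.7% of all genes tested were called. Postn was called as well without vehicle replicate 3, BI replicate 2 or BI replicate 3 and with the study's cutoffs, and Sparc without vehicle replicate 3 and with DESeq2. Leaving out 1 tumor, 2 to 4 members were called higher, where 17.7% to 28.6% of all genes tested were called in either direction. The count of 4 came without vehicle replicate 3, where that share was 17.7%. The median log2 fold change of the members was then 0.16 to 0.32. Nothing is read from these counts, because the members were chosen with this contrast in view.

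Of the lists, leaving out 1 tumor gave 4 to 9 higher and 0 to 2 lower for the other matricellular genes, 2 to 4 and 2 to 3 for the receptors, and 1 to 10 higher for the matrix partners. For markers it gave 1 to 5 higher for fibroblasts, 0 to 1 for mural cells, 0 to 5 for endothelium, 6 to 8 for macrophages and 0 to 1 for adipocytes, and for carcinoma cells 0 to 1 higher and 1 to 2 lower. In these settings 17.7% to 28.6% of all genes tested were called in either direction. With the study's cutoffs, 2 receptors were higher and 0 lower, 0 matrix partners were lower, and 4 fibroblast, 0 mural, 1 endothelial, 1 carcinoma cell and 1 adipocyte markers were higher and 1 carcinoma cell marker lower. Without a filter, 4 fibroblast and 0 mural markers were higher. With the filter at 1 CPM, 2 fibroblast markers were higher and 1 carcinoma cell marker lower. DESeq2 called 2 fibroblast, 5 endothelial, 1 carcinoma cell and 1 adipocyte markers higher, and limma-voom 2 fibroblast markers. Apart from the study's cutoffs, which change the threshold, the cause of these shifts was not tested.

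Of 310 alternatives to the correlations, 78 moved. With 3 vehicle tumors, each of them weighs heavily on the calls, and Tnxb and Tnn in vehicle tumors rest on few counts. No paired analysis was possible because the labels give no replicate numbers that the groups share.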

Other observations

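Searched over 12186 genes, the gene most alike to Fn1 over the 9 tumors, in log2 CPM centered within groups, was Ltbp2, a microfibril protein (r = 0.947), followed by Coro7 (r = 0.947) and Fuca2 (r = 0.943). For Tnc it was Mmp2 (r = 0.987), before Epb41l3 (r = 0.980) and Gas1 (r = 0.976). Tnn was most alike to Rbmx (r = 0.994), Sorcs2 (r = 0.991) and Spon1, which encodes a matrix protein (r = 0.991). Postn was most alike to Spon1 (r = 0.991), Col12a1, a fibril-associated collagen chain (r = 0.989), and Tnn (r = 0.989). Sparc had Cilp (r = 0.967), Thy1 (r = 0.960) and Sulf1 (r = 0.958) closest to it.

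Thbs1 was most alike to Tjp1 (r = 0.986), Tnfrsf19 (r = 0.975) and Cd38 (r = 0.972), and Thbs2 to Pitpnc1 (r = 0.975), Rpap3 (r = 0.959) and Myl9 (r = 0.958). Spp1 was most alike to Shisa4 (r = 0.968), Clu (r = 0.962) and Srp54c (r = 0.959). For Sparcl1 these genes were Mia3 (r = 0.982), Ogfod1 (r = 0.949) and Ankrd11 (r = 0.946), and for Tnxb Gm16845 (r = 0.957), Shfl (r = 0.947) and Mrm2 (r = 0.921). These are the highest of many correlations over 9 tumors that share their libraries, and are given as a description without a test.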
